A study of Mus musculus with 8 samples.

Results

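Glycolysis is represented here by 10 mouse genes, Hk2, Gpi1, Pfkl, Pfkp, Aldoa, Aldoc, Tpi1, Pgk1, Pgam1 and Ldha. They were taken by name as enzymes of the pathway, with earlier results of these data known. They occupied 11 rows of the deposited table, because Aldoa has 2 Ensembl identifiers, and all 10 genes were among the 15187 genes with enough counts to be tested. RNA was sequenced from N2a cells, a mouse neuroblastoma line, grown in high-glucose medium with serum. The Nrsn2 OE group held 4 libraries from cells that had been transiently transfected to overexpress Nrsn2, which encodes neurensin-2, a small membrane protein of neuronal vesicles described by the submitters as stress-responsive. The control group held 4 libraries of the same line, and both groups carry a collection time of 24 hours after transfection. The treatment given to the control cells, the share of cells that took up the construct, and whether replicates were separate cultures are not stated in the labels. All p-values therefore reflect the spread among these libraries only, which could be technical.

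Glycolysis splits glucose into pyruvate in the cytosol, with a small yield of ATP and NADH. Hexokinase and phosphofructokinase act at early, controlled steps, aldolase splits the sugar, the enzymes from triosephosphate isomerase to pyruvate kinase form the lower part, and lactate dehydrogenase turns pyruvate into lactate and restores NAD+. Growing cells in culture often release lactate even with oxygen present, and many genes of the pathway are known targets of the hypoxia-inducible factor HIF-1 and of MYC.

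The core letters of the HIF recognition sequence stood in 11 of the 14 promoter windows of the 10 genes, against 43.8% of all RefSeq promoter windows of this length. The 14 windows are not independent, since 2 Aldoa windows overlap and hold the same match. Counted by gene, 8 of the 10 had the letters in any window. The windows of the 3 genes with the lowest adjusted p, Pfkp, Pgam1 and Ldha, are shown with that of Gpi1, which had no such letters and was not called. Each is a RefSeq window on GRCm38.p6, 5′ to 3′ on the gene's own strand, from 250 bases before the start to 50 bases after it. Capitals mark ACGTG and GCGTG on either strand, so a match on the opposite strand reads CACGT or CACGC. The windows are chr13:6648722-6649021 on the minus strand for Pfkp, chr19:41911621-41911920 on the plus strand for Pgam1, chr7:46845554-46845853 on the plus strand for the first of 2 Ldha windows, and chr7:34230287-34230586 on the minus strand for Gpi1.
Pfkp: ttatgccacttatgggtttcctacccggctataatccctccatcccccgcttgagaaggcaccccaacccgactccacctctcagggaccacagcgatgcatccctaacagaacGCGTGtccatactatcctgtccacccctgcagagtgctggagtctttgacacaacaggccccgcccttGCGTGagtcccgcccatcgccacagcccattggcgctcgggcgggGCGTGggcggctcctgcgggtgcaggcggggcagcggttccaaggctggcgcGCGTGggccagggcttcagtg
Pgam1: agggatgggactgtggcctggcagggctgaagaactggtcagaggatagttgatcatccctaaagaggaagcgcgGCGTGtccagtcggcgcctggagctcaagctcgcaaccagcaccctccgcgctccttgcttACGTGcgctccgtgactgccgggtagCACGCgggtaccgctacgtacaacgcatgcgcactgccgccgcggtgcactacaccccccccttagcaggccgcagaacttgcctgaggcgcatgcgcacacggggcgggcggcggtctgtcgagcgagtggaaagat
Ldha: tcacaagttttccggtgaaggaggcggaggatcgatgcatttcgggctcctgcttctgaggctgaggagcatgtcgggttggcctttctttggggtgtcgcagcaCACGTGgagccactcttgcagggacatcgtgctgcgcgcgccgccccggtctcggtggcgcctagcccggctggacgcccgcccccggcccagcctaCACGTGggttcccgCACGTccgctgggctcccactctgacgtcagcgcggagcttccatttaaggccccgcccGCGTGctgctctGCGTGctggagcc
Gpi1: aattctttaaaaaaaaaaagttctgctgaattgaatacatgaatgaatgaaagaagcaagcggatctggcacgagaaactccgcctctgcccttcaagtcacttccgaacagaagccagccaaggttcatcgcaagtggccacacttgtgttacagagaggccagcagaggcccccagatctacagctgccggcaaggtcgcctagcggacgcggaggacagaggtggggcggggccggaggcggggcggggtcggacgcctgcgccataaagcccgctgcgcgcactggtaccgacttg

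The Pfkp window held 4 GCGTG matches, and the Pgam1 window held 3 matches, 1 of ACGTG and 2 of GCGTG. The Ldha window held 7 matches, 5 of ACGTG and 2 of GCGTG. It contains CACGTG, the E-box read by MYC and related factors, in 2 places, and each of those counts as ACGTG on both strands. No window of Gpi1 or Tpi1 held either core, while Hk2, Pfkl, Aldoa, Aldoc and Pgk1 had at least 1. The letters did not sort the genes by call, since Tpi1 was called lower without them, and Pfkl and Aldoa were not called with them. Of all 32851 RefSeq promoter windows of this length, 43.8% held ACGTG or GCGTG and 7.15% held CACGTG. The motifs were chosen with the expression values known, and a match in these letters is a description of the window, not a binding site.

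Library totals were 17522453 to 21395096 counts in Nrsn2 OE and 15347255 to 20600086 counts in control cells. Nrsn2 itself averaged 161 ± 12 CPM in Nrsn2 OE and 8.53 ± 1.67 CPM in control cells (SD, n = 4 each), where CPM denotes counts scaled for library total with TMM factors. All 12 neuroblast markers listed for the check of the cell line passed the count filter, and their summed level was 985 to 1060 CPM in Nrsn2 OE and 1130 to 1240 CPM in control libraries. Single markers went both ways, with 5 lower and 3 higher, where 16.8% of all tested genes were lower and 18.6% higher. Among these markers were Stmn2 at -0.49 and Gata2 at 0.54 on the log2 scale (edgeR adjusted p = 1.39e-05 and 5.96e-06). Of 16 markers of other cell types, 7 passed the filter, their summed level was 27 to 30.8 CPM in Nrsn2 OE and 28.5 to 33.6 CPM in control libraries, and the highest single value was 14.5 CPM, for the myelin gene Mbp. The part of either marker difference in the results on glycolytic enzymes was not tested. Control library 4 held the highest level of every one of the 10 enzymes, so the results on the enzymes are given with and without it.

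Of the 10 enzymes, 7 were lower in Nrsn2 OE and 0 were higher at an adjusted p under 0.05 (edgeR quasi-likelihood test, Benjamini-Hochberg over all tested genes), and their median log2 fold change was -0.40. The lower genes were Hk2, Pfkp, Aldoc, Tpi1, Pgk1, Pgam1 and Ldha, while Gpi1, Pfkl and Aldoa were not called. With all libraries no enzyme was higher at an unadjusted edgeR p under 0.05 either, or by DESeq2 or limma-voom, and without control 4 Aldoa was, with a 95% interval of 0.025 to 0.33. Of all tested genes, 35.4% were called, 16.8% lower and 18.6% higher, and the median over them was -0.001. The 10 enzymes were chosen with earlier results of these data known, so their counts are not those of a neutral list. The 12 other tested genes of glycolysis had 5 lower and 3 higher, with a median of 0.014. Without control 4, 6 of the 10 were called lower and 0 higher with a median of -0.25, against 31.1% called, 14.7% lower and 16.4% higher, of 15431 genes. In 6 of the 10, every Nrsn2 OE library lay below every control library, an arrangement found in 15.4% of all tested genes, and the same 6 lay below controls 1 to 3, as did 17.7% of all tested genes. In 0 of the 10 did every Nrsn2 OE library lie above every control library, against 17.2% of all tested genes. In bulk libraries, fewer cells of a type and less RNA per cell cannot be told apart.

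**Figure D1:**
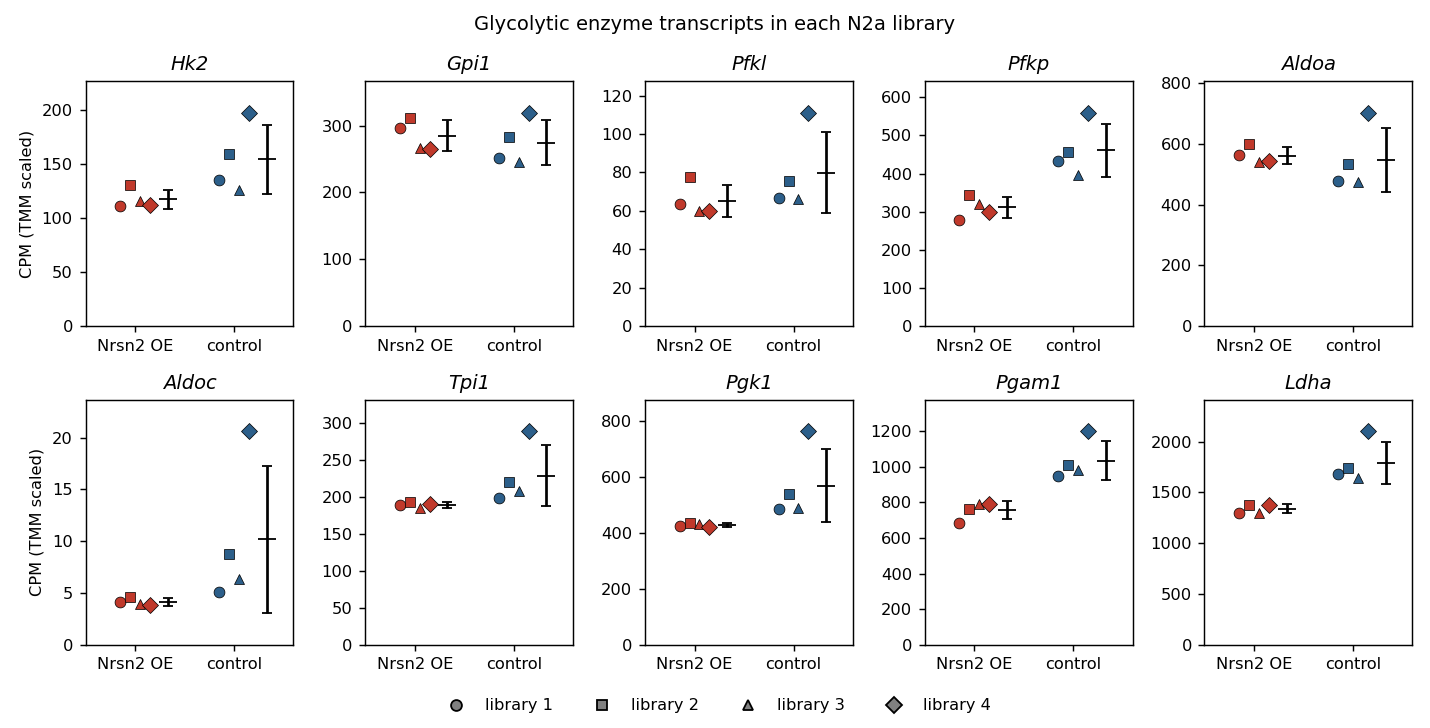
TMM-scaled CPM of each enzyme in the 4 Nrsn2 OE libraries (red) and the 4 control libraries (blue), with the mean and SD beside the points and marker shapes for library numbers. Control 4 is the highest point in all 10 panels, and the groups do not overlap for Pfkp, Aldoc, Tpi1, Pgk1, Pgam1 and Ldha.

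At the entry of the pathway, Hk2 (chromosome 6, 82702006 to 82751435 of GRCm39), the inducible hexokinase that traps glucose as its phosphate, had 111, 130, 116 and 112 CPM in Nrsn2 OE and 135, 159, 126 and 197 CPM in control libraries. The groups overlapped at one point, since Nrsn2 OE library 2 exceeded control 3. Hk2 was lower by the test, at -0.40 ± 0.10 on the log2 scale (fold change ± SE; edgeR adjusted p = 0.0063) and at -0.26 ± 0.08 without control 4 (edgeR adjusted p = 0.0205). Hk1, the other main hexokinase of neural cells, had a log2 fold change of 0.08 ± 0.09 (edgeR adjusted p = 0.477), or 0.16 ± 0.08 without control 4 (edgeR adjusted p = 0.136). Hk2 made up 65.0% ± 1.6 of the summed hexokinase level per kilobase of exon in Nrsn2 OE and 72.0% ± 1.8 in control libraries (SD, n = 4 each). These shares depend on the exon lengths used, which cover all annotated exons of each gene.

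Gpi1, which interconverts glucose and fructose phosphates, had 296, 312, 266 and 265 CPM in Nrsn2 OE and 251, 283, 245 and 319 CPM in control libraries. The 2 ranges lay across each other, and the log2 fold change was 0.054 with a 95% interval of -0.12 to 0.23 (edgeR adjusted p = 0.64). The interval leaves out falls of the size seen for Hk2, Pfkp, Pgam1 and Ldha.

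Phosphofructokinase commits the sugar to glycolysis, and its platelet-type isozyme Pfkp (chromosome 13, 6629804 to 6698813) had 278, 345, 321 and 300 CPM in Nrsn2 OE and 434, 457, 395 and 559 CPM in control libraries. Every Nrsn2 OE library was below every control library. The log2 fold change was -0.57 ± 0.09 with all libraries (edgeR adjusted p = 0.00014) and -0.47 ± 0.08 without control 4 (edgeR adjusted p = 0.000299). Pfkp overlaps Pitrm1, a mitochondrial peptidase gene on the opposite strand, and the library kit does not mark strand, so reads in the overlap cannot be told apart. Pitrm1 ran from 208 to 223 CPM in Nrsn2 OE and from 226 to 232 CPM in control libraries, with a log2 fold change of -0.091 ± 0.057 (edgeR adjusted p = 0.222).

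The liver-type isozyme Pfkl had 63.8, 77.6, 59.9 and 59.8 CPM in Nrsn2 OE and 66.8, 75.6, 66.4 and 111 CPM in control libraries. The groups overlapped, and the highest Nrsn2 OE library exceeded 3 of the 4 controls. Pfkl was not called, with a log2 fold change of -0.30 ± 0.13 (edgeR adjusted p = 0.0835), and the value without control 4 was -0.097 ± 0.089 (edgeR adjusted p = 0.437). The call turned on single libraries, since leaving out control 1, control 3 or Nrsn2 OE 2 gave -0.38, -0.38 and -0.39 with edgeR adjusted p of 0.0418, 0.0379 and 0.0362. The muscle-type isozyme Pfkm, which was not among the 10, had a log2 fold change of -0.48 ± 0.09 (edgeR adjusted p = 0.000353), or -0.42 ± 0.09 without control 4 (edgeR adjusted p = 0.00128).

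Aldolase splits the 6-carbon sugar, and Aldoa is its main form in most cells. Aldoa had 565, 600, 539 and 543 CPM in Nrsn2 OE and 478, 534, 474 and 702 CPM in control libraries. All 4 Nrsn2 OE libraries lay above controls 1 to 3, as in 19.5% of all tested genes, and below control 4. The log2 fold change was 0.038 with a 95% interval of -0.17 to 0.24 (edgeR adjusted p = 0.794), and 0.18 ± 0.07 without control 4 (edgeR adjusted p = 0.0709). The second identifier named Aldoa did not exceed 1.55 CPM in any library.

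Aldoc, the brain form of aldolase (chromosome 11, 78213794 to 78218607), was the least abundant of the 10, with 4.07, 4.64, 3.90 and 3.80 CPM in Nrsn2 OE and 5.06, 8.71, 6.34 and 20.6 CPM in control libraries. The groups did not overlap, and the control libraries were spread far more widely than the Nrsn2 OE libraries. The log2 fold change was -1.33 ± 0.31 (edgeR adjusted p = 0.00287), and control 4 set much of its size, since without it the value was -0.71 ± 0.17 (edgeR adjusted p = 0.00482). Behind these levels stood 69 to 102 counts per library in Nrsn2 OE and 86 to 420 counts in control cells.

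In the lower part of the pathway, Tpi1, which interconverts the 2 triose phosphates, had 189, 194, 185 and 190 CPM in Nrsn2 OE and 199, 221, 208 and 289 CPM in control libraries. The Nrsn2 OE libraries were all below the controls, though the gap between the closest pair, 194 CPM in Nrsn2 OE library 2 and 199 CPM in control 1, was small. Tpi1 was lower by the test, with a log2 fold change of -0.27 ± 0.09 (edgeR adjusted p = 0.024). The call was lost without control 4, where the value was -0.15 ± 0.06 (edgeR adjusted p = 0.0884), and without Nrsn2 OE 3, where it was -0.26 (edgeR adjusted p = 0.0636).

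Pgk1 (chromosome X, 105230706 to 105247305), the kinase of the first ATP-yielding step, had 425, 436, 430 and 421 CPM in Nrsn2 OE and 484, 538, 490 and 762 CPM in control libraries. The Nrsn2 OE libraries agreed within a coefficient of variation of 1.53%, and all lay below the lowest control. The log2 fold change was -0.41 ± 0.11 (edgeR adjusted p = 0.00598) and -0.24 ± 0.07 without control 4 (edgeR adjusted p = 0.0103).

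Pgam1 (chromosome 19, 41900362 to 41907099), the mutase that moves the phosphate of phosphoglycerate, had 682, 763, 790 and 791 CPM in Nrsn2 OE and 950, 1010, 985 and 1200 CPM in control libraries. Its groups were separated by a wide gap, and of the 10 it had the smallest excess in control 4. The log2 fold change was -0.45 ± 0.08 (edgeR adjusted p = 0.000273) and -0.38 ± 0.07 without control 4 (edgeR adjusted p = 0.000938).

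At the exit to lactate, Ldha (chromosome 7, 46490899 to 46505051) had 1300, 1380, 1300 and 1380 CPM in Nrsn2 OE and 1680, 1740, 1640 and 2100 CPM in control libraries. No library of the 2 groups overlapped. The log2 fold change was -0.42 ± 0.08 (edgeR adjusted p = 0.000616) and -0.33 ± 0.07 without control 4 (edgeR adjusted p = 0.002). Ldhb, the heart-type subunit, had 1 count in all libraries together, so Ldha carried nearly all of the counted lactate dehydrogenase transcript.

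**Figure D2:**
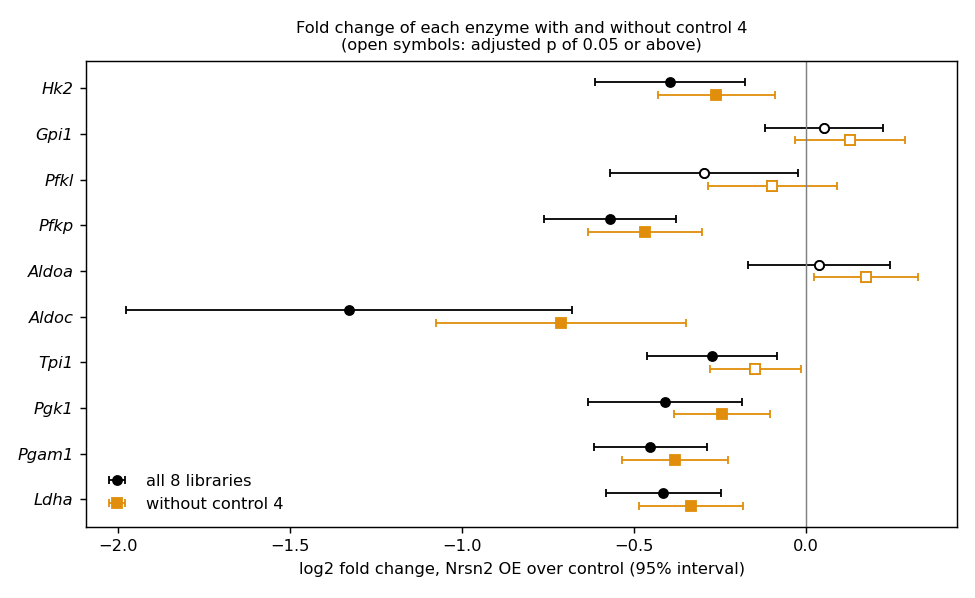
Log2 fold change of each enzyme, Nrsn2 OE over control, with its 95% interval, for all 8 libraries (black circles) and without control 4 (orange squares), where open symbols have an adjusted p of 0.05 or above. Without control 4 the call of Tpi1 is lost, Aldoc stands at -0.71, and Gpi1 and Aldoa stay on the positive side.

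The authors' deposited table gives the same calls for all 10 genes at its own threshold, an adjusted p under 0.1. The fold changes in the authors' deposited table run from -1.32 for Aldoc to 0.045 for Gpi1, with -0.30 and an adjusted p of 0.314 for Pfkl.

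The excess of control 4 over the mean of controls 1 to 3 ran from 0.29 for Pgam1 to 1.64 for Aldoc on the log2 scale, with a median of 0.48 over the 10 enzymes. Over all tested genes the median excess was 0.012 and the 5th to 95th percentile range was -0.36 to 0.57, and control 4 was the highest library for 17.5% of them. Aldoc had the excess of rank 7 among the 15187 genes. In Nrsn2 OE the members' share of all counts was 0.401%, 0.436%, 0.401% and 0.405%, against 0.457%, 0.502%, 0.452% and 0.621% in control libraries. All 4 Nrsn2 OE shares were below all 4 control shares. The share weighs most the genes with most counts, Ldha and Pgam1, and does not speak for each of the 10.

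**Figure D3:**
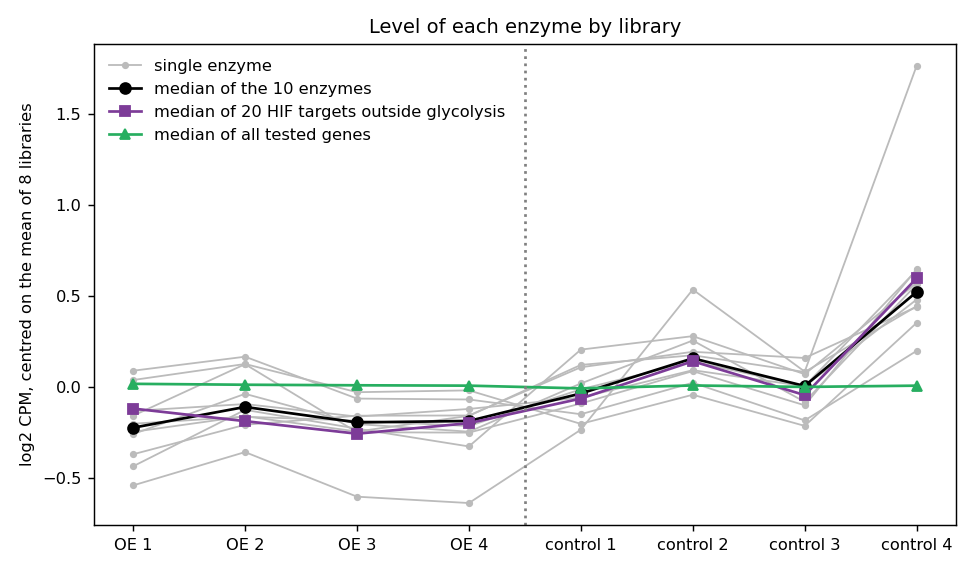
Log2 CPM of each enzyme (grey) centred on its mean over the 8 libraries, with the medians of the 10 enzymes (black), of 20 HIF targets outside glycolysis (purple) and of all tested genes (green). The enzyme median lies between -0.23 and -0.11 in Nrsn2 OE, between -0.04 and 0.16 in controls 1 to 3, and at 0.52 in control 4, and the HIF target median follows a similar course.

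Levels were summed by step after division by the length of all annotated exons of a gene, which can exceed that of its main transcript. On this scale the highest levels belonged to lactate dehydrogenase, phosphoglycerate mutase and glyceraldehyde-3-phosphate dehydrogenase. The order of the steps depends on that length. Gapdh, counted as 4133 bases, had more CPM than Ldha, counted as 3310 bases (1540 against 1340 CPM in Nrsn2 OE). Lactate dehydrogenase had 406 ± 14 CPM per kilobase in Nrsn2 OE and 541 ± 64 in control cells, and phosphoglycerate mutase had 387 ± 26 CPM per kilobase in Nrsn2 OE and 525 ± 55 in control cells (SD, n = 4 each). Hexokinase was the lowest step, with 30.2 ± 2.5 CPM per kilobase in Nrsn2 OE and 35.7 ± 6.5 in control cells. Against all 4 controls, the log2 ratios of the sums were smallest for glucose-6-phosphate isomerase, aldolase, enolase and pyruvate kinase, at 0.054, 0.024, 0.044 and -0.029. Against controls 1 to 3 these 4 ratios were 0.14, 0.17, 0.22 and 0.087, and those of hexokinase, triosephosphate isomerase and glyceraldehyde-3-phosphate dehydrogenase were -0.12, -0.14 and -0.17, so the order of the small differences rests on control 4. Phosphofructokinase had the largest ratio both ways, -0.49 against all controls and -0.38 against controls 1 to 3. The enolase sum also depends on how reads were divided between Eno1 and the nearly identical Eno1b, whose exon lengths differ. These sums were not tested.

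**Figure D4:**
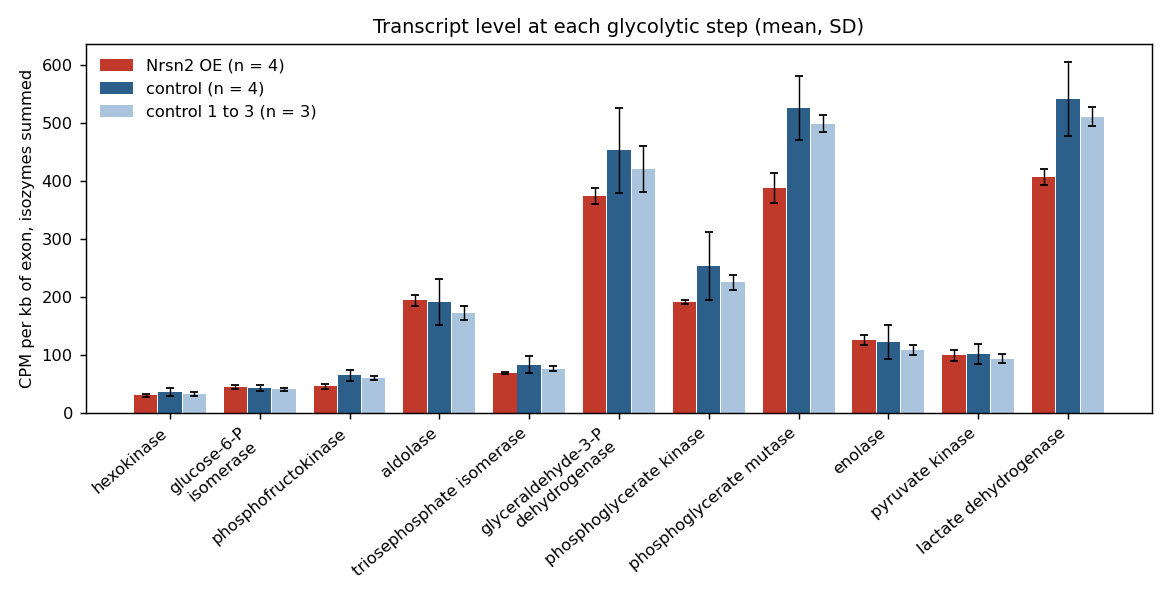
Transcript level of each glycolytic step in CPM per kilobase of exon, isozymes summed, as the mean with SD for Nrsn2 OE (red, n = 4), control (dark blue, n = 4) and controls 1 to 3 (light blue, n = 3). The red bars are lower than both control bars at phosphofructokinase, phosphoglycerate kinase, phosphoglycerate mutase and lactate dehydrogenase. They are also lower, by a smaller ratio, at hexokinase, triosephosphate isomerase and glyceraldehyde-3-phosphate dehydrogenase. At aldolase and enolase they lie near the 4-control bars (194 against 191 and 125 against 122) and above the bars of controls 1 to 3 (172 and 108).

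A ratio between isozymes of a step within a library does not depend on how libraries are scaled. Hk2 over Hk1 had a mean log2 ratio of 0.43 ± 0.09 in Nrsn2 OE and 0.90 ± 0.14 in control libraries, and Aldoc over Aldoa had -7.09 ± 0.06 in Nrsn2 OE and -5.95 ± 0.63 in control libraries (SD, n = 4 each). Eno2 over Eno1, the neuronal over the ubiquitous enolase, had -3.58 ± 0.10 in Nrsn2 OE and -2.72 ± 0.38 in control libraries. This last ratio leaves out Eno1b, which is nearly identical to Eno1, and how reads were divided between them is uncertain. For these 3 ratios every Nrsn2 OE library lay below every control library. That gives a two-sided exact permutation p of 0.0286, the smallest that 4 against 4 libraries allow. Of all tested genes, taken singly, 15.4% were separated in this direction and 17.2% in the other. The share over all pairs of genes was not computed. A set of 6 pairs had been planned, and Ldha over Ldhb gave no usable ratio. Adjusted over the 6 planned pairs none passed, with an adjusted exact permutation p of 0.0571 for each of the 3. Adjusted over the 5 pairs with a value, those 3 had 0.0476, so the call hangs on how the pair without counts is treated. Without control 4 the differences were -0.41 for Hk2 over Hk1, -0.86 for Aldoc over Aldoa and -0.67 for Eno2 over Eno1, and both adjusted values were the same.

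Pfkp over Pfkl differed by -0.29 and Pfkm over Pfkl by -0.21, with adjusted exact permutation p of 0.0857 and 0.206 over the 6 pairs. Control 4 lay within the range of the Nrsn2 OE libraries for both of these ratios, unlike controls 1 to 3.

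**Figure D5:**
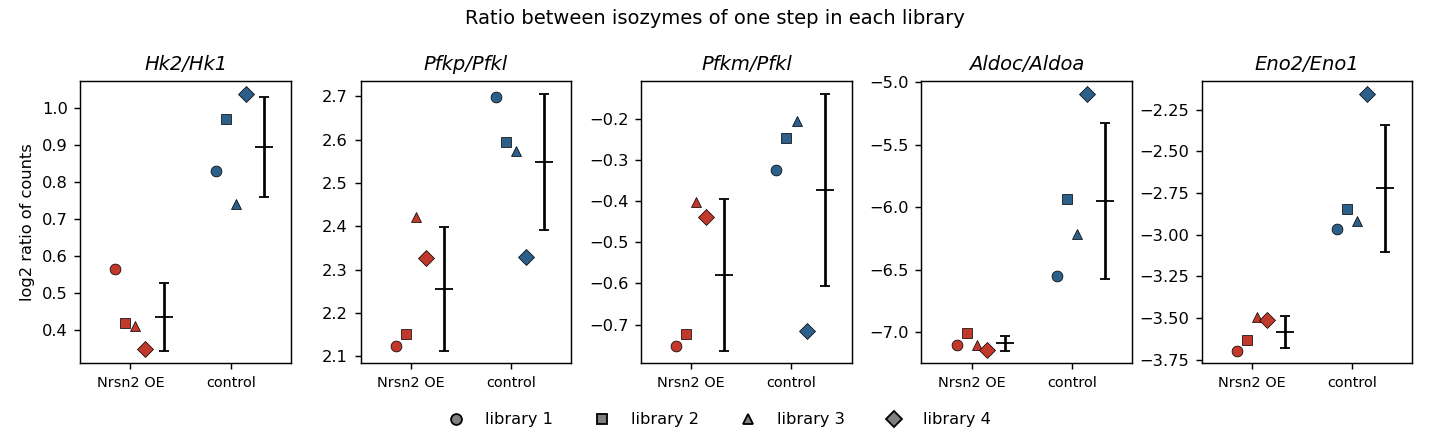
Log2 ratio of counts between isozymes in each Nrsn2 OE (red) and control (blue) library, with mean and SD, for 5 isozyme pairs. The groups are separate for Hk2/Hk1, Aldoc/Aldoa and Eno2/Eno1, and for Pfkp/Pfkl and Pfkm/Pfkl control 4 falls among the Nrsn2 OE libraries.

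The ratios between all 45 pairs of the 10 enzymes were compared after their values had been seen. None passed after adjustment over the 45 pairs, where the lowest adjusted exact permutation p was 0.056, or 0.0613 without control 4, and 23 had an unadjusted p of 0.0286. With 4 libraries a group, an unadjusted p cannot be lower than that, and no pair could pass unless more than these 23 reached it. The comparison therefore could not decide whether the enzymes differed in response. Gpi1 and Aldoa each had the unadjusted p of 0.0286 in 8 of their 9 pairs. The other enzymes had it in 2 (Pgam1) to 6 (Tpi1) of 9.

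Of the 19 other genes of glycolysis that were listed, 12 passed the filter, of which 5 were lower and 3 higher. The shares over all tested genes were 16.8% lower and 18.6% higher. The median over the 12 glycolysis genes was 0.014 on the log2 scale, or 0.12 without control 4. The lower ones were Adpgk (-0.44 ± 0.07), Pfkm, Eno2 (-0.86 ± 0.22), Bpgm (-0.26 ± 0.08) and Gapdh (-0.28 ± 0.09), with edgeR adjusted p of 7.76e-05, 0.000353, 0.0055, 0.0113 and 0.0251. The higher ones were of low abundance, namely Pgam2 (0.78 ± 0.18), Eno3 (0.32 ± 0.10) and Hkdc1 (0.71 ± 0.26), with edgeR adjusted p of 0.00327, 0.0161 and 0.0434. Eno1, Eno1b, Hk1 and Pkm were not called, and Pkm, the pyruvate kinase of most tissues, had 495 ± 46 CPM in Nrsn2 OE and 506 ± 84 CPM in control cells (SD, n = 4 each). Without control 4 there were 4 lower and 4 higher, and Eno2 stood at -0.40 ± 0.09 (edgeR adjusted p = 0.00266). Gapdh (edgeR adjusted p = 0.105) and Hkdc1 (edgeR adjusted p = 0.115) then lost their calls, and Eno1 (0.28 ± 0.09, edgeR adjusted p = 0.0224) and Eno1b (0.20 ± 0.08, edgeR adjusted p = 0.0469) gained one. Eno1b is nearly identical to Eno1, so how their reads were divided is uncertain.

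Among the genes that feed and drain the pathway, 3 of 6 tested transporters were lower and 0 higher. Of all tested genes, 16.8% were lower and 18.6% higher. The lower transporters were the glucose carriers Slc2a1 (-0.61 ± 0.19) and Slc2a3 (-0.54 ± 0.15) and the lactate carrier Slc16a3 (-0.57 ± 0.15), with edgeR adjusted p of 0.0156, 0.0106 and 0.00651. Without control 4 the same 3 were called at -0.26, -0.26 and -0.33. The groups overlapped for Slc2a1 and Slc16a3, with and without control 4, and did not overlap for Slc2a3. Of 11 tested regulators of glycolysis and of pyruvate entry, 4 were lower and 1 higher. The higher one was Pfkfb3 (0.23 ± 0.08, edgeR adjusted p = 0.031), which lost its call without control 4 (edgeR adjusted p = 0.077). Pdk1, a kinase that holds back pyruvate dehydrogenase, moved by -1.57 ± 0.40 (edgeR adjusted p = 0.00512), or -0.82 without control 4. Its groups overlapped at a low level with and without control 4, with 2.31 to 5 CPM in Nrsn2 OE and 4.71 to 24.6 CPM in control libraries. Pdp2, the phosphatase that opposes Pdk1, moved by -0.55 ± 0.07, and Pgm1, which links glycogen to glucose phosphate, by -0.60 ± 0.13 (edgeR adjusted p = 1.81e-05 and 0.00169), or by -0.52 and -0.43 without control 4.

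Other routes of central carbon metabolism were counted in the same fit, in which 16.8% of all tested genes were lower and 18.6% higher. Of 24 genes of pyruvate entry and the citric acid cycle, 4 were lower, near the share over all tested genes, and 2 higher, with a median of -0.013. Those with the smallest p were Fh1 (-0.59 ± 0.07), Dlat (-0.43 ± 0.07) and Sdhb (0.37 ± 0.07), with edgeR adjusted p of 4.5e-06, 0.000244 and 0.00048. Of 7 genes of the pentose phosphate pathway, 0 were lower and 1, Taldo1, was higher (0.22 ± 0.08, edgeR adjusted p = 0.0408). Of 3 tested gluconeogenic enzymes 1 was lower, the mitochondrial Pck2 (-0.49 ± 0.07, edgeR adjusted p = 7.33e-05).

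Among HIF targets outside glycolysis, 11 of 20 were lower and 1 higher with a median of -0.38, or 7 lower and 1 higher with a median of -0.23 without control 4. Of all tested genes, 16.8% were lower and 18.6% higher, or 14.7% and 16.4% without control 4. The higher target was Kdm3a in both fits, at 0.35 ± 0.09 with all libraries (edgeR adjusted p = 0.00385) and 0.46 without control 4. With all libraries, the 3 targets with the smallest p were Car12 (-0.77 ± 0.14), Plod2 (-0.65 ± 0.12) and Vegfa (-0.42 ± 0.10), with edgeR adjusted p of 0.00046, 0.0005 and 0.00319. Without control 4 these 3 stood at -0.58, -0.44 and -0.28 and were still called. Control 4 was the highest library for 16 of the 20 HIF targets, with a median excess of 0.62. Over all tested genes it was the highest for 17.5%, with a median excess of 0.012. Of 7 tested HIF subunit and hydroxylase genes, 2 were lower and 1 higher. Hif1a, the oxygen-regulated subunit, stood at -0.23 ± 0.06, and the hydroxylase genes Egln1 and Egln2 at -0.31 ± 0.11 and 0.36 ± 0.08 (edgeR adjusted p = 0.00944, 0.0282 and 0.00277). Egln1 lost its call without control 4 (edgeR adjusted p = 0.115). Of the genes listed under MYC, 4 were tested, Myc, Mycn, Max and Mlxip, and 0 were called. Mycn alone had an unadjusted edgeR p under 0.05 (-0.21 ± 0.10, edgeR adjusted p = 0.103).

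The genes whose course over the 8 libraries was nearest to the enzymes' median were ranked by the root mean square difference of centred log2 CPM among 8105 protein-coding genes of at least 10 CPM. They were Gstm1 (0.036), Tecr (0.050), Gapdh (0.053), P4ha1 (0.058) and Got1 (0.060). Of these Gapdh is itself a glycolytic enzyme and P4ha1 is listed among the HIF targets.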

How the data were processed

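PolyA RNA from 8 N2a libraries, 4 Nrsn2 OE and 4 control, was analysed from a single table. DESeq2 1.36.0, HTSeq 2.01, TopHat2 2.1.1 and cutadapt 2.10, with the build GRCm39, are listed in the submitters' processing notes. Their roles, the annotation and the strand setting were not given in the sources used here. The deposited values are, per the file headers, whole-number counts per Ensembl gene, and a normalized signal, the same counts divided by size factors. The deposited table also holds the authors' log2 fold changes with standard errors, a Wald statistic, which is a score, and the authors' p-values, with significance marked at an adjusted p under 0.1. Of 55414 rows, 6250 without values were left out.

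Counts were tested in edgeR 4.0.16 (R 4.3.3) by its quasi-likelihood F test with TMM, filterByExpr at a minimum count of 10 and Benjamini-Hochberg adjustment over 15187 genes, and again without control 4. Standard errors were derived from the F statistic. CPM carries TMM factors, and log2 CPM used a prior count of 2. Isozyme ratios used counts plus 0.5 and two-sided exact permutation tests over 70 arrangements, or 35 without control 4. Library totals ranged from 15347255 to 21395096 counts, the common biological coefficient of variation was 0.0862, and replicates differed by 2.61 to 16.1 chi-square units per degree of freedom, more than counting noise.

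The members and lists were chosen with earlier results of these data known. The genes named were Nrsn2, the 10 members, the tested genes of the rest of glycolysis, the 3 genes with the smallest p in each other list, not all of which are given, and the 5 nearest profiles. Pfkfb3, Kdm3a, the overlapping Pitrm1 and the promoters shown were chosen after values were seen. So were the motifs, the step sums, the isozyme shares and the comparison of all member pairs. Where a symbol had several rows, the row with most counts was used. Alternatives were other scaling factors, DESeq2 1.42.0, voom of limma 3.58.1, other count filters, GC and length offsets (mgcv 1.9.3; 99.8% of genes matched), a replicate block, and leaving out each library. Exon lengths, which join the exons of all annotated transcripts of a gene, and GC came by identifier from an older annotation. No coordinates were therefore taken from it, and promoter windows are RefSeq's on GRCm38.p6. Named pseudogene copies of the members reached at most 8 counts per library.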

Additional observations from a re-analysis of the deposited data

Results flagged for a closer look

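Among 32 sets of 4 libraries checked for a sample far from the others, 2 stood out, and chance gives about 1 in 20. The share of counts held by the 10 enzymes was 0.436% in Nrsn2 OE library 2, against 0.401% to 0.405% in the other Nrsn2 OE libraries, and it remained below every control library. The log2 ratio of Eno2 over Eno1 was -2.15 in control 4, against -2.97 to -2.85 in controls 1 to 3, all of them above the Nrsn2 OE libraries.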

How the results depend on the processing

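Over 18 alternative settings, the number of enzymes called lower ran from 6 to 8 and none was called higher, with a median log2 fold change between -0.47 and -0.25. Hk2, Pfkp, Aldoc, Pgk1, Pgam1 and Ldha were called lower in all 18, Tpi1 in 16, Pfkl in 6, and Gpi1 and Aldoa in 0. Gpi1 and Aldoa, not called under any setting, changed sign with GC and length offsets (-0.025 and -0.055), with those offsets and the replicate block (-0.023 and -0.043), and when a control was left out. Leaving out 1 library gave -0.001 (without control 3) to 0.13 (without control 4) for Gpi1 and -0.029 (without control 3) to 0.18 (without control 4) for Aldoa, with -0.024 without control 1. The cause was not tested. Correlations of the deviations of same-numbered libraries of the 2 groups were -0.102, -0.035, 0.059 and -0.077, and only number 3 was closest to its own number. These values show no pairing by number, but they cannot tell whether same-numbered libraries were handled together. With the replicate block 7 enzymes were lower, with a median of -0.38, and no enzyme changed its call. For the isozyme ratios the exact sign-flip permutation test over 4 pairs cannot go below p = 0.125 and says nothing of their stability. Without control 4, higher calls were 0 among regulators, 1 in the citric acid cycle and 0 in the pentose phosphate pathway, and lower calls were 1 among HIF subunits and hydroxylases and 7 among HIF targets. With GC and length offsets, higher calls were 1 in the rest of glycolysis, 0 among regulators, 0 in the pentose phosphate pathway and 2 among HIF targets, and lower calls were 1 in the pentose phosphate pathway, 1 among HIF subunits and hydroxylases and 1 among MYC genes. Without control 4, DESeq2 called 6 enzymes lower and the offsets 8. Depth limits Aldoc most, at 69 counts in its lowest library.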
